A study of Mus musculus with 4 samples.

Results

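The histone genes that sit in the Hist clusters of the mouse genome were examined in single heart cells of 4 stages. The members were the 69 entries of the gene list whose symbols begin with Hist1h, Hist2h, Hist3h or Hist4, of 27998 genes in all. These 69 entries carry 68 symbols, because Hist2h2bb is listed under 2 identifiers. They comprise 6 entries for the linker histone H1, 19 for H2A, 19 for H2B, 12 for H3 and 13 for H4. On the mouse build GRCm38, 53 lie on chromosome 13, 11 on chromosome 3, 2 on chromosome 11 and 1 on chromosome 6, and 2 had no match in the annotation used. That annotation lists Hist1h2al, which lies apart from the other chromosome 13 entries, as a processed pseudogene. It lists 1 entry of Hist2h2bb as a noncoding RNA, and both were kept. Beside the 69 entries stand 7 replacement histone genes (H2afz, H2afx, H2afv, H3f3a, H3f3b, H1f0 and H1fx), which brings the genes described to 76.

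Histones H2A, H2B, H3 and H4 form the protein core around which DNA is wound, and H1 binds the DNA that links the cores. The clustered genes are known as replication histones, because a cell makes most of their mRNA while it copies its DNA. Most of these mRNAs have no poly(A) tail and end just after a short stem-loop that the protein encoded by Slbp binds. Replacement histones such as H2A.Z (H2afz) and H3.3 (H3f3a, H3f3b) are made throughout the cell cycle from ordinary polyadenylated mRNAs. The libraries were primed with oligo-dT, which captures RNA through runs of A, so the question taken up was which replication histones are counted at all, at which stage and in which cells.

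The study sorted CD31+/CD45- cells, a gate for endothelial cells without leukocytes, from hearts of mice of the strain C57Bl6J. It made 1 library per stage, from 37 pooled hearts at embryonic day 12 (E12), 48 at E15, 21 at postnatal day 2 (P2) and 6 at 8 weeks (adult). Digestion differed between stages, red cells were lysed in the adult sample only, dead cells were removed with a kit at E12 and E15 and by sorting at P2 and in adults, all cells had been frozen and thawed, and the embryonic samples were gathered over several rounds of sorting. Stage and library can therefore not be told apart, no test between stages was possible, and the intervals below are exact 95% intervals that cover counting error only.

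The values are counts of unique molecular identifiers (UMIs), given as CPM, the UMIs of a gene scaled to a fixed total over the cells compared. The E12 matrix still held 737280 barcodes, and those with at least 452 UMIs were taken as cells, which left 5732, while the deposited cells numbered 6062 (E15), 5884 (P2) and 4242 (adult). The P2 library was the deepest, with a median of 4531.5 UMIs per cell against 1013 to 1510 in the other libraries. The sort was checked against 8 endothelial markers. At least 2 of their UMIs were held by 99.8% of P2 cells and 97.6% of adult cells, but by 64.9% at E15 and 40.5% at E12. Pecam1, which encodes CD31, stood at 118, 243, 639 and 815 CPM from E12 to adult, and Ptprc, which encodes CD45, at no more than 2.75. At E12, 9 erythroid genes summed to 7104 CPM, against 1319 at E15, 28.4 at P2 and 450 in adults, and 8 genes of mesenchyme and fibroblasts to 2029, 2071, 813 and 1174 CPM. Between 25 and 60 cell barcodes were shared by any 2 libraries, where 33.0 to 48.4 would be shared by libraries drawn independently.

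The sequences at the ends of these mRNAs are shown first, because an oligo-dT library can only count an mRNA through a poly(A) tail or an internal run of A. In the annotated transcripts of 67 replication members (GENCODE vM21, GRCm38), the stem-loop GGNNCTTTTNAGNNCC was found in 41 (61.2%). Over all protein-coding genes, the protein-coding members included, 69 of 21901 (0.315%) held the stem-loop. Its most frequent form, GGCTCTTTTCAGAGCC, was held by 23 members, and the form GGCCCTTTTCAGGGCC by 7, all of them H4 genes. Only the longest annotated protein-coding transcript of each gene was searched, or the longest of any kind where none was protein-coding. A stem-loop in another transcript of the gene would be missed. Some transcripts are short, so a stem-loop past an annotated end would be missed as well. A member without a hit may therefore still have one. Below, the stem-loop is in capitals with the bases that flank it in the mRNA.

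Hist1h2ap: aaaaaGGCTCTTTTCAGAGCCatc
Hist1h2ag: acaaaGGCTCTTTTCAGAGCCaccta
Hist1h2ae: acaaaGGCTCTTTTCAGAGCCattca
Hist1h1c: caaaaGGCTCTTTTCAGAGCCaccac
Hist3h2a: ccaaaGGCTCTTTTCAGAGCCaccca
Hist3h2ba: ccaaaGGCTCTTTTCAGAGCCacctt
Hist1h4h: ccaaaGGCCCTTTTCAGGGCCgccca
Hist1h4i: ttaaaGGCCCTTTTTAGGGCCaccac
H2afx: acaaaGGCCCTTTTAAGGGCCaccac

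What follows the stem-loop differed between members. The annotated Hist1h2ap transcript, of 482 bases, runs on for 3 bases after it and that of Hist1h2ag for 23, whereas the transcripts of Hist1h1c and Hist3h2a run on for 840 and 1643 bases. Of the 41 members with the stem-loop, 21 had at least 100 annotated bases after it, and 12 held the polyadenylation signal AATAAA after it. H2afx was the only 1 of the 7 replacement histones to hold the stem-loop, and 6 of the 7 held AATAAA. The last AATAAA of the genes that are summed further down as the polyadenylated members is in capitals below. The next lines give the longest run of A of 3 members, the most counted of those with a run of at least 8.

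Hist1h2bc signal: gtatatatAATAAAtgtcatgt
Hist1h1c signal: atgcttctAATAAAaagcgttt
Hist3h2a signal: atatgcccAATAAAataagagt
Hist3h2ba signal: atggtattAATAAAtttggttc
Hist2h2be signal: ttattattAATAAAgttaccga
Hist1h2ap A run: cgaaaagAAAAAAAAAAAAggctctt
Hist1h2ae A run: atctcgtAAAAAAAAcaaaggc
Hist1h2bc A run: gtaaagcAAAAAAAAtgcgtca

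The run of 12 A in Hist1h2ap ends where its stem-loop begins, 19 bases before the end of the transcript. The near-copy Hist1h2ao, with 16 UMIs, has a run of the same length. The longest run among the replication members searched was 15 A, in Hist1h2ac with 86 UMIs. Runs of 11 and 8 A stand in Hist1h2be (99 UMIs) and Hist1h1d (47 UMIs), so long runs were not confined to members with many UMIs. The signal lies 26 bases before the annotated end in Hist1h1c, 34 in Hist3h2a, 27 in Hist3h2ba and 22 in Hist2h2be. In Hist1h2bc, whose annotated transcript of 1156 bases holds no stem-loop of this form, it lies 447 bases before the end. These 5 genes, known to give polyadenylated mRNA in cells that do not divide, are summed below as the 5 polyadenylated members, and the remaining 64 as the other members. The list was chosen with earlier results of these data known, so it is not independent of them. It includes the members counted most, Hist1h2bc, Hist1h1c and Hist3h2a, which weigh most in its sum. Whether the mRNAs counted here had a tail was not measured. Sequence alone did not sort the 2 sets, because Hist1h1c, Hist3h2a and Hist3h2ba hold the same 16 letters as Hist1h2ap. Whether any read began at an A run or a signal was not tested, since read positions are not in a count matrix.

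The replication members gave 24890 UMIs over the 4 libraries and the 7 replacement genes 312179. At least 20 UMIs were seen for 53 of the 69 members, and 14 had 1 to 19: Hist1h2aa, Hist1h2ad, Hist1h2ah, Hist1h2ao, Hist1h2bh, Hist1h2bq, Hist1h2br, Hist1h3f, Hist1h4f, Hist1h4k, Hist1h4m, Hist2h2aa2, Hist2h2ab and 1 entry of Hist2h2bb. Hist1h1t and Hist1h2ba, which encode histones of the testis, were at 0 in every library. The member just over the minimum of 20 was the other entry of Hist2h2bb with 22 UMIs and the member just under it Hist1h3f with 18. At least 1 UMI was found for 65, 60, 63 and 50 members from E12 to adult.

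Low counts do not by themselves show that a gene was silent. Many members are near-identical, and a read that matches several genes equally can go uncounted. Of the 50-base stretches in the last 300 bases of Hist1h2ap, 0% were unique to it and 100% were shared with Hist1h2ao, and Hist1h1e likewise had 0% unique, its top partner being the overlapping Hist1h2be. The figure was 29.9% for Hist1h2ag, 36.3% for Hist1h4h, 53.8% for Hist1h2ak, 78.1% for Hist1h2ae and 96.8% for Hist1h2bc. The median was 25.1% over 15 members with fewer than 20 UMIs and 57.6% over 52 with more. Both sets ranged from 0% to 100%, and 25 of the 52 were under 50%. Hist1h2ap and Hist1h1e gave 2553 and 497 UMIs despite 0% unique stretches, so the figure does not describe what was counted for them. Whether shared sequence lowered any count was not tested. Counts of single members are therefore uncertain where a copy exists. A read that went uncounted would be missing from their sum as well.

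Summed over all cells, the 69 replication members stood at 592, 420, 390 and 725 CPM from E12 to adult. The lowest and highest stage thus differed less than 2-fold, and adults, with the fewest dividing cells, had the highest level. Without Hist1h2bc, the member counted most, the sums were 515, 349, 285 and 378 CPM, and E12 was highest. That sum joins sets of genes whose summed levels ran in opposite directions from E12 to adults. Single members did not all follow their set, as described below. The 5 polyadenylated members were at 155, 145, 234 and 610 CPM from E12 to adult, so that their share of all replication histone UMIs went from 26.1% to 34.5%, 60.0% and 84.2%. The other 64 were at 437, 275, 156 and 115 CPM over all cells, lower at each later stage. Their interval at P2 (151 to 160) lay above that in adults (107 to 122). Within single kinds of cell, described below, they were higher in adults than at P2. In cells with no UMI of 4 mitosis genes they were at 46.2 CPM at P2 and 102 in adults. In cells with at least 2 such UMIs they were at 536 and 763 CPM. The latter cells were 14.97% of all cells at P2 and 0.778% in adults. Within cells that had at least 2 endothelial marker UMIs, the 64 others stood at 340, 270, 156 and 117 CPM, and the 5 polyadenylated members at 125, 141, 234 and 621. The E12 values differed most from those over all cells, and the later stages changed little. The part of the make-up of the libraries in the stage differences was not tested.

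**Figure D1:**
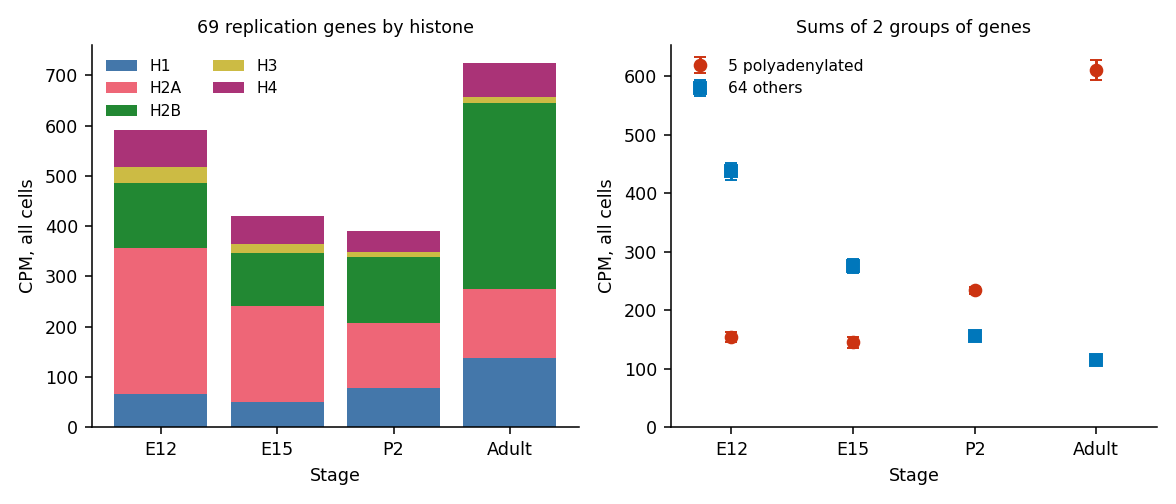
Summed CPM of replication histone genes in all cells of each stage (x axis, 1 library each): on the left the 69 genes stacked by histone, on the right the 5 polyadenylated members and the 64 others, with error bars that are exact 95% Poisson intervals. The polyadenylated sum is 155 CPM at E12 and 610 in adults, while the sum of the others is 437 CPM at E12 and 115 in adults.

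By histone, the H2A genes led at E12 with 290 CPM, followed by H2B with 130, H4 with 74.5, H1 with 66.6 and H3 with 30.8. In adults H2B led with 369 CPM, and H1 was at 138, H2A at 137, H4 at 68.1 and H3 at 12.5. H3 was the class with fewest UMIs at each stage, with 18.5 CPM at E15 and 10.6 at P2. A core particle holds equal numbers of the 4 core histones, so these sums of 3′ counts do not follow the proteins' proportions.

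The counts were concentrated in few genes, and more so at later stages. The gene with most UMIs held 18.4%, 17.0%, 26.9% and 47.9% of all replication histone UMIs in the order of the stages. The leading 3 genes held 39.7%, 39.0%, 56.7% and 82.1%.

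Among the 53 members with at least 20 UMIs, 37 were highest at E12, 11 in adults, 3 at E15 and 2 at P2, and 28 were lower at every later stage. How many of all genes had each order was not counted, so these counts have no background share. The 11 adult-highest members were Hist1h1c, Hist1h2bc, Hist1h2be, Hist1h4h, Hist2h2aa1, Hist2h2be, Hist2h3c1, Hist2h3c2, Hist2h4, Hist3h2a and Hist4h4, listed after their values were seen. Comparing adult with E12 cells, 40 members had at least 20 UMIs over both, of which 27 were lower by 2-fold or more in adults (22.2% of all 12646 genes compared) and 10 were higher (23.4% of all genes). The count of higher members was thus near the share over all genes. The median log2 difference of the 40 members was -2.68, against 0.07 for all genes, and that of the 5 polyadenylated members was 1.78. From E12 to E15, 39 members could be compared, and 4 were lower (5.93% of all genes) and 1, Hist1h4h, was higher (4.99%). That value rested on a single E15 cell with 23 of its 51 UMIs, without which E15 stood at 3.96 CPM against 3.20 at E12. From E15 to P2, 20 of 48 were lower (10.2% of all genes) and 3 were higher (13.2%), namely Hist1h1c, Hist2h4 and Hist4h4. Hist1h4h was among the lower ones. Without the same E15 cell it stood at 3.96 CPM at E15 against 3.47 at P2, short of 2-fold. From P2 to adult, 24 of 45 were lower (13.7%) and 10 were higher (11.5%). A member with few UMIs enters such a count only through the stage where it is high.

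**Figure D2:**
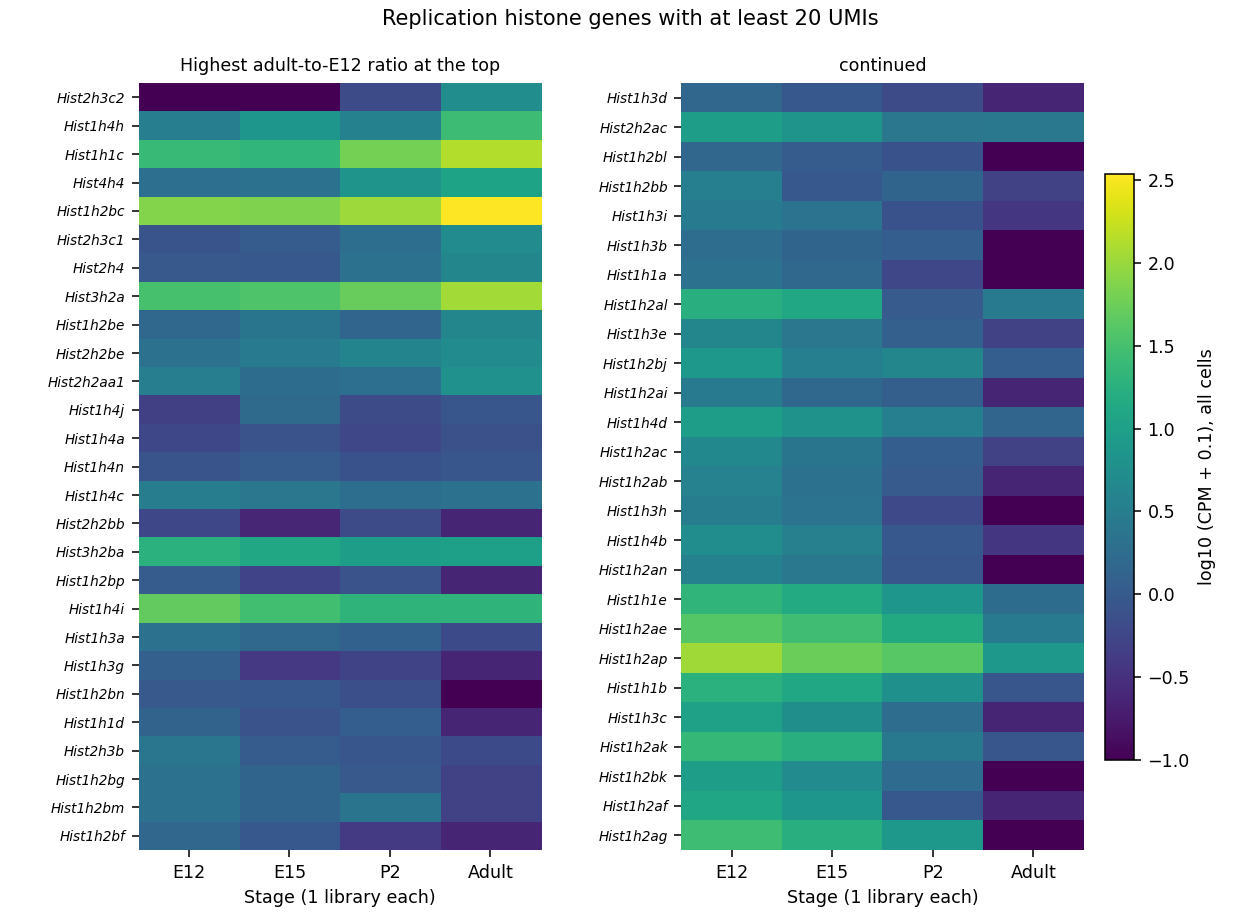
Level of each replication histone gene with at least 20 UMIs (rows, ordered by the ratio of adult to E12 CPM) at the 4 stages (columns, 1 library each), colored by log10 of CPM plus 0.1 over all cells. The 11 genes highest in adults are near the top, and 33 of the 53 rows are brightest at E12 and darkest in adults (bright is high). The same count over all genes was not made.

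The annotated transcripts of the adult-highest members were longer. Their median length was 1630 bases, with 9 of 11 at 1000 bases or more, against a median of 520 bases and 5 of 37 for the E12-highest members. AATAAA stood in 8 of 11 against 7 of 37, and the stem-loop in 9 of 11 against 23 of 37. These are descriptions of genes that the stage values had sorted, and a longer annotated end can also reflect how a gene was annotated. Lengths are those of the longest protein-coding transcript of each gene. A stem-loop or AATAAA past a short annotated end, or in another transcript of the gene, would not be counted.

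Promoters were compared because replication histone genes are known to share a TATA box and CCAAT boxes. In windows of 300 bases around the start (250 before to 50 after, RefSeq, GRCm38.p6), CCAAT on either strand was found in 53 of 62 replication members (85.5%), against 37.9% of 27025 promoters, and TATAAA on either strand in 35 of 62 (56.5%), against 14.2%. Among the E12-highest members with a promoter, 32 of 34 held CCAAT and 23 of 34 TATAAA. Among the adult-highest, 6 of 8 held CCAAT and 1 of 8 TATAAA. Not all windows were separate. Both entries of Hist2h2bb had the same window, and those of some neighboring H2A and H2B genes overlapped, so that a motif could count for both genes. Only the exact string TATAAA was counted, so a promoter without it may still have a TATA box. The Hist1h1c and Hist3h2a promoters printed below hold tatata, left in lower case. The 120 bases before the start are printed for Hist1h1b, an H1 gene highest at E12, on the minus strand at chr13:21780626-21780745, and for Hist1h1c and Hist3h2a, both highest in adults, on the plus strand at chr13:23738687-23738806 and chr11:58954565-58954684. Capitals mark CCAAT, its reverse ATTGG, and TATAAA.

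Hist1h1b: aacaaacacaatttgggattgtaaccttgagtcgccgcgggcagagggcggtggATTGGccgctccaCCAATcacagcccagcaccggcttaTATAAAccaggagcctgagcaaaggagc
Hist1h1c: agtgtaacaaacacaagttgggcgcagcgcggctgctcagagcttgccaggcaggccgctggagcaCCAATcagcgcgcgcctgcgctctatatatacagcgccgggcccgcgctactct
Hist3h2a: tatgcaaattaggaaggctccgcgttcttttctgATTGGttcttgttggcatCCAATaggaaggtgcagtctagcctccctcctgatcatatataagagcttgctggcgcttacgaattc

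The member counted most, and the first by UMIs of the 12 named here, was Hist1h2bc (ENSMUSG00000018102, chromosome 13, 23684199 to 23692908), a gene for H2B. It gave 6902 UMIs, 27.7% of all those of replication members. Its level was 77.4, 71.5, 105 and 347 CPM from E12 to adult. The intervals of E12 and E15 overlapped, and the adult level was the highest.

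Hist1h1c (ENSMUSG00000036181, chromosome 13, 23738808 to 23740367), which encodes the linker histone H1.2, came next with 3267 UMIs. It stood at 24.3, 21.2, 63.5 and 136 CPM from E12 to adult. Hist3h2a (ENSMUSG00000078851, chromosome 11, 58954685 to 58956830), an H2A gene of the small cluster on chromosome 11, gave 2949 UMIs and levels of 32.7, 37.0, 52.7 and 112 CPM. These genes share the order of Hist1h2bc, with the embryonic stages low and adults highest. The neighbor of Hist3h2a, the H2B gene Hist3h2ba (chromosome 11, 58948920 to 58949533), did not follow it: with 584 UMIs it stood at 18.3, 12.6, 9.14 and 9.80 CPM. Hist2h2be, the fifth of the polyadenylated members, had no more than 4.97 CPM at any stage.

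Hist1h2ap (ENSMUSG00000094777, chromosome 13, 21833026 to 21833507), an H2A gene, led the remaining members with 2553 UMIs. It was at 109 CPM at E12, the highest of any replication member there, then at 55.4, 41.1 and 7.58 CPM. Further H2A genes had the same order. Hist1h2ae (974 UMIs) was at 40.6, 28.8, 14.1 and 2.75 CPM, Hist1h2ag (560 UMIs) at 27.1, 16.4 and 7.56 CPM with 0 UMIs in adults, and Hist1h2ak (386 UMIs) at 22.8, 16.5, 2.63 and 0.784 CPM. The 0 of Hist1h2ag in adults came from 7650091 UMIs, which allows a level of up to 0.392 CPM.

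The H1 genes Hist1h1e (497 UMIs) and Hist1h1b (421 UMIs) declined in the same order, the former from 20.9 to 14.7, 7.08 and 1.70 CPM and the latter from 18.2 to 12.7, 5.97 and 0.784 CPM. They thus ran opposite to Hist1h1c, a gene of the same class. The H4 genes split as well. Hist1h4i (1348 UMIs) was at 48.4, 29.2, 20.1 and 20.0 CPM, whereas Hist1h4h (384 UMIs) was at 3.20, 7.20, 3.47 and 26.7 CPM, its adult level the highest. At E15, 2 cells held 31 of its 51 UMIs, and without them the level was 2.83 CPM.

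Cells with at least 2 UMIs of Top2a, Ube2c, Birc5 and Nusap1, genes that act in mitosis, are called dividing below and were set against cells with none. Dividing cells numbered 936 (16.3%), 572 (9.44%), 881 (14.97%) and 33 (0.778%) from E12 to adult. Deeper cells reach 2 UMIs more readily. Dividing cells had median depths of 1959, 1711, 7004 and 3430 UMIs, against 1120, 956, 4206 and 1499 in the cells with none. With every cell thinned to 500 UMIs, 271, 233, 226 and 12 cells were called, or 4.80%, 4.09%, 3.84% and 0.283%. Wherever thinned values are given, cells were grouped anew by the UMIs left. Cells that lost their mitosis UMIs then joined those with none.

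Replication histones as a sum were higher in dividing cells at every stage, and most of the difference lay in the 64 other members. From E12 to adult the sum was 1040 against 370 CPM, 1114 against 245, 794 against 262 and 1714 against 711, ratios of 2.81 (2.64 to 2.99), 4.54 (4.20 to 4.91), 3.03 (2.92 to 3.15) and 2.41 (2.11 to 2.75). The 64 others alone were at 921 against 205, 1001 against 106, 536 against 46.2 and 763 against 102 CPM. Their ratios were 4.49 (4.16 to 4.85), 9.43 (8.52 to 10.5), 11.6 (10.8 to 12.5) and 7.47 (6.03 to 9.16). In thinned cells the adult sum turned to a ratio of 0.676, from 12 dividing cells. There, the ratios of the 64 others were 3.76 at E12, 8.38 at E15 and 8.24 at P2, and the adult value of 4.25 had an interval from 0.870 to 12.6.

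The 5 polyadenylated members differed less, and at E12 and E15 they were lower in dividing cells. In dividing cells they stood at 119, 113, 259 and 951 CPM from E12 to adult, against 165, 139, 216 and 609 CPM in the cells with no mitosis UMI. The ratios were 0.720 (0.621 to 0.832), 0.813 (0.665 to 0.985), 1.20 (1.13 to 1.27) and, in adults, 1.56 (1.30 to 1.86). With 1 mitosis UMI as the limit the E15 ratio was 1.18. The adult ratio turned on a single barcode. It held 74 of the 238 replication histone UMIs of the 33 dividing cells, 63 of them from the polyadenylated members, with 2 mitosis UMIs and none of 22 S phase genes. Without it, the adult polyadenylated ratio was 0.845 (0.656 to 1.07), that of all 69 members 1.72 (1.46 to 2.01) and that of the 64 others 6.93. At P2 a barcode of 6073 UMIs held 179 replication histone UMIs, 111 of them from Hist1h2bc, and without it the polyadenylated ratio was 1.10 (1.04 to 1.17).

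Markers of other cells moved with the split. From dividing to other cells, the 9 erythroid genes went from 2195 to 9361 CPM at E12, where all 9 were detected, and the endothelial markers from 801 to 1375. In adults the 9 immune genes, all detected, were at 1555 CPM in dividing cells and 331 in the others. Their part in the histone ratios was not tested. Within cells with at least 2 endothelial marker UMIs the 64 others gave ratios of 5.43, 9.77, 11.6 and 7.33 in the order of the stages.

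Gene by gene, 27 members had at least 20 UMIs over both sets of cells at E12, and 19 of them were higher by 2-fold or more in dividing cells (4.48% of all genes compared). The count was 14 of 19 at E15 (6.12% of all genes), 33 of 41 at P2 (5.86%) and, for adult cells, 7 of 15 (13.3%). At no stage was a compared member lower by 2-fold or more, against 4.41%, 6.22%, 11.4% and 11.6% of all genes. The single polyadenylated member among the higher ones was Hist3h2ba in adults, with 9 UMIs in dividing cells, and without the barcode named above its ratio was 2.52.

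At P2 and in adults Hist1h2ap showed the widest gap among the named members. Its level in dividing cells was 256, 236, 181 and 374 CPM from E12 to adult, whereas in cells with no mitosis UMI it was 38.0, 15.8, 1.79 and 0.808 CPM. The ratios were 6.74 (5.70 to 8.00), 14.9 (11.6 to 19.3), 101.1 (72.6 to 145) and 463 (199 to 1320), the last from 52 against 6 UMIs. At the depths sequenced, the level differed between stages far more in the cells with no mitosis UMI than in dividing cells. Shallower cells show a mitosis UMI less readily, so the cells with none are not alike between stages. Hist1h2ap was found in 36.3%, 31.3%, 45.4% and 45.5% of dividing cells and in 3.66%, 1.46%, 0.812% and 0.144% of the others. Thinned to 500 UMIs, the shares in dividing cells were 12.5%, 11.6%, 9.29% and 16.7%, the last from 12 cells. In the others they were 3.09%, 1.20%, 0.452% and 0.0712%.

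Hist1h2ae had ratios of 3.71 (2.90 to 4.78), 12.7 (9.02 to 18.0) and 24.9 (18.2 to 34.7) at E12, E15 and P2, and 12 against 7 UMIs in adults. Hist1h2ag had 4.14, 7.50 and 15.035, with 0 UMIs in both sets of adult cells. Hist1h2ak had 6.61, 34.2 (18.5 to 68.8) and 18.1 (9.46 to 38.0) at the same stages, with 0 UMIs in adult dividing cells and 6 in the rest.

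The H1 gene Hist1h1b was higher by 11.3-fold (6.99 to 19.1), 17.8-fold (10.1 to 33.2) and 46.1-fold (25.1 to 94.1), with 3 against 1 UMI in adults. Hist1h1e stayed nearly level, at 5.49, 5.24 and 4.36. Hist1h4i had ratios of 2.74, 5.12, 7.53 and, from 8 UMIs, 2.99 (1.27 to 6.05), the adult value being 1.16 without the barcode named above. For Hist1h4h the intervals included 1 at each stage, with ratios of 1.25, 0.568, 1.48 and 1.07. The E15 cell with 23 Hist1h4h UMIs had no mitosis UMI, and without it the level of such cells was 3.90 CPM in place of 8.16, against 4.64 CPM in dividing cells, which puts the ratio on the other side of 1.

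Hist1h2bc was lower in dividing cells at E12 (0.529, 0.417 to 0.663) and E15 (0.629, 0.452 to 0.856), and higher at P2 (1.24, 1.14 to 1.35) and in adults (1.56, 1.22 to 1.96). Without the single barcode of each stage the values were 1.06 (0.967 to 1.16) at P2 and 0.731 in adults. Hist3h2a had ratios of 0.866, 0.667 (0.433 to 0.992), 0.917 and 1.61 (1.04 to 2.40), the last being 1.34 without that barcode. Hist1h1c had 0.909, 1.69 (1.08 to 2.56), 1.30 (1.16 to 1.44) and 1.16, the adult value being 0.602 without it. Hist3h2ba had 0.961 and 1.03 at the embryonic stages and 1.85 (1.40 to 2.42) at P2.

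**Figure D3:**
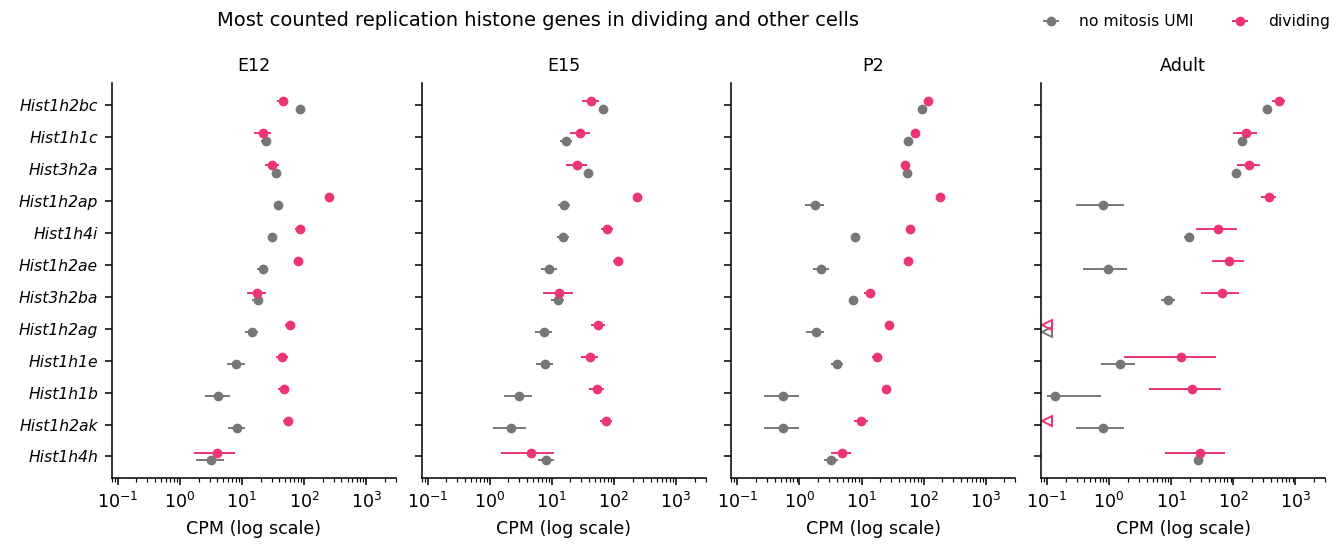
CPM (log scale) of the 12 most counted replication histone genes in dividing cells and in cells with none of the 4 mitosis UMIs, 1 panel per stage, with exact 95% Poisson intervals. Hist1h2ap stands at 256 against 38.0 CPM at E12 and at 374 against 0.808 in adults, while Hist1h2bc and Hist3h2a differ by less than 2-fold at each stage. Open triangles at the left edge mark 0 UMIs.

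Stages were also set against each other within 1 kind of cell. From E12 to E15, none of 23 members compared in dividing cells was higher or lower by 2-fold or more (4.52% and 6.9% of all genes were). In cells with no mitosis UMI, 12 of 24 were lower at E15 (5.77% of all genes) and 2 were higher (4.52%), Hist1h4h and Hist2h2be. Without the single cell named above, Hist1h4h stood there at 3.90 CPM at E15 against 3.17 at E12, short of 2-fold. From E15 to P2, 19 of 42 were lower in dividing cells (9.98% of all genes) and 7 higher (15.7%), and 7 of 23 were lower in the others (9.28%) and 3 higher (13.6%), namely Hist1h1c, Hist2h4 and Hist4h4. In both kinds of cell the count of higher members was near the share over all genes. Hist1h4h was among the 7 lower in the others. Without the same E15 cell it stood there at 3.90 CPM at E15 against 3.23 at P2, short of 2-fold. From P2 to adult, cells with no mitosis UMI had 12 of 22 members higher (10.8% of all genes) and 4 lower (12.8%), the last being Hist1h1e, Hist1h2ae, Hist1h2ag and Hist1h2ap. The names were read off after their values were seen.

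By histone, the H2A genes differed most at E12, E15 and in adults, by 4.36, 8.15 and 5.27-fold, with 5.65-fold at P2. The H3 genes had ratios of 3.22, 6.70, 7.20 and 3.003 and the H4 genes of 2.60, 3.83, 4.08 and 1.81. The H2B genes, where Hist1h2bc holds most counts, had 0.988 (0.850 to 1.15), 1.28 (1.05 to 1.57), 1.71 (1.59 to 1.84) and 1.89 (1.52 to 2.31).

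The share of dividing cells with at least 1 replication histone UMI was 80.2%, 75.5%, 88.9% and 87.9% from E12 to adult, against 28.2%, 18.4%, 53.1% and 57.8% of the others. Thinned to 500 UMIs, the shares were 41.7% against 17.6%, 43.3% against 11.6%, 30.1% against 12.7% and, for the 12 adult cells, 25.0% against 28.1%. Among adult cells with no mitosis UMI, 52.96% held a UMI of the 5 polyadenylated members and 14.7% one of the 64 others.

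To place the counts in the cell cycle, cells were also split by 22 S phase genes at 2 UMIs or more. The 64 others peaked where S phase and mitosis UMIs met at each stage, and Hist1h2ap did so at P2, the stage for which it is given. At E12 the 64 others stood at 149 CPM in 3137 cells with neither, 333 in 993 with S phase UMIs only, 1011 in 594 with both and 711 in 342 with mitosis UMIs only. At E15 the values were 86.7, 201, 1109 and 828 CPM. At P2 they were 47.2, 45.5, 548 and 164 CPM, with 51 cells in the last group, and in adults 109, 73.6, 801 and 603 CPM, with 24 and 9 cells in the last groups. The adult value of 603 CPM fell to 229, from 5 UMIs in 8 cells, without the single barcode named above.

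At P2, 2151 cells had S phase UMIs only, and the 64 others were no higher there than with neither (ratio 0.964). In thinned cells that value was 3.98 (2.84 to 5.50), but the groups there do not hold the same cells. At P2, cells with no mitosis UMI numbered 4432 before thinning and 5306 after it. Hist1h2ap at P2 was at 1.72 CPM with neither, 1.84 with S phase only, 187 with both and 9.39 with mitosis only. The last value rests on very few UMIs in 51 cells, and all 4 are from cells that were not thinned.

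The polyadenylated members were lower in cells with S phase UMIs only than in those with neither at each stage: 106 against 191 CPM, 91.4 against 149, 193 against 246 and 514 against 630, in stage order. In thinned cells the ratios were 0.486 (0.289 to 0.769), 0.593 (0.304 to 1.05), 0.488 (0.322 to 0.713) and 0.516 (0.257 to 0.927). With mitosis UMIs only they were at 681 CPM in 51 cells at P2, and at 563 without the cell that held 28 of their 145 UMIs there. In adults they were at 2901 CPM in 9 cells, 1 of them the single barcode named above, and at 642 over the remaining 8.

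**Figure D4:**
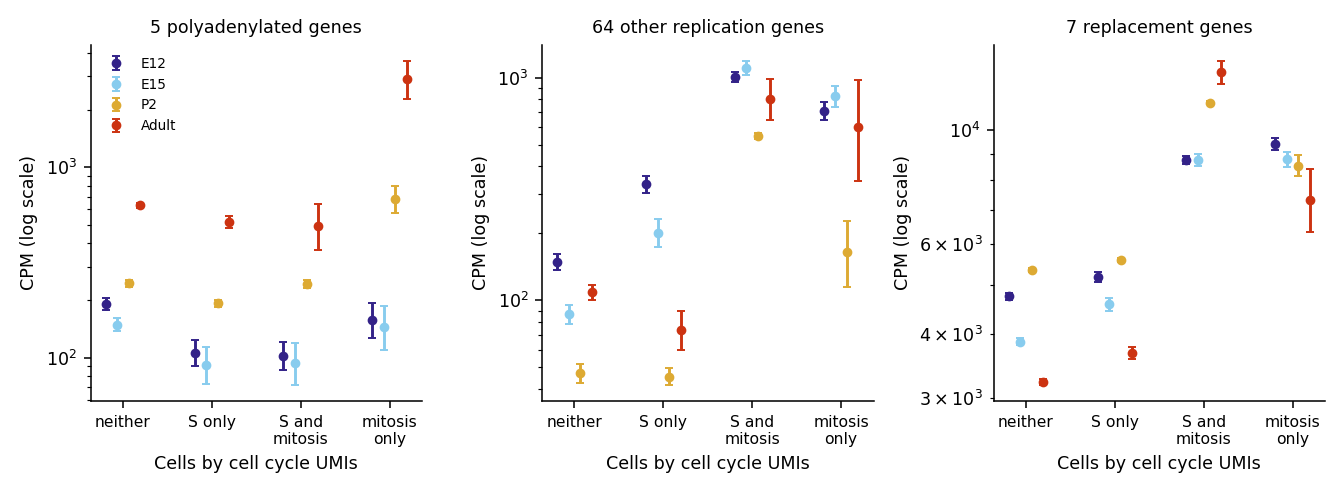
CPM (log scale) in cells grouped by S phase UMIs and mitosis UMIs (2 or more of each list), for the 4 stages, with exact 95% Poisson intervals. The 64 other members peak in cells with both lists at every stage (1011, 1109, 548 and 801 CPM), and the 5 polyadenylated members do not.

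The 7 replacement histones outnumbered the 69 replication members in UMIs at every stage, by 10.3, 11.6, 17.4 and 4.80-fold. Their sum was 6123, 4884, 6789 and 3480 CPM, and it was higher in dividing cells by 1.83, 2.198, 2.05 and 3.59-fold.

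H3f3b and H3f3a both encode H3.3, and both had some of the smallest differences between dividing and other cells. H3f3b was at 1714, 1488, 2948 and 1759 CPM, with ratios of 1.60, 1.63, 1.33 and 2.28. H3f3a was at 1428, 1319, 1180 and 739 CPM, with ratios of 1.06, 1.13, 1.11 and 1.77. The genes for H3.3 thus differed in their order over stages, H3f3b being highest at P2 and H3f3a at E12.

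H2afz, which encodes the H2A.Z that marks gene starts, stood at 1709, 1157, 1464 and 420 CPM and was higher in dividing cells by 2.60, 4.18, 5.45 and 11.97-fold. Within endothelial marker cells its E12 level was 1456 CPM. Its relative H2afv was at 645, 464, 357 and 220 CPM, with ratios of 1.94, 2.65, 2.62 and 5.27.

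H2afx encodes H2A.X, the form phosphorylated at DNA breaks, and its transcript alone among the 7 carries the stem-loop printed above. It had the highest ratios of the 7, at 4.94, 9.04, 10.7 and 16.4, on levels of 168, 118, 138 and 39.5 CPM. The 64 other replication members had ratios of 4.49, 9.43, 11.6 and 7.47.

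The linker histone genes differed from each other. H1f0 was highest at P2 (248.8, 205, 669 and 302 CPM) with ratios of 2.96, 2.87, 2.16 and 3.29. H1fx was at 209, 132 and 32.5 CPM and, with 7 UMIs, at 0.915 CPM in adults. Its ratios were 2.45, 3.65 and 2.79 before adulthood. Within endothelial marker cells H1fx was at 156, 120, 32.6 and 0.811 CPM, so that most of its difference between E12 and adults was present there too.

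**Figure D5:**
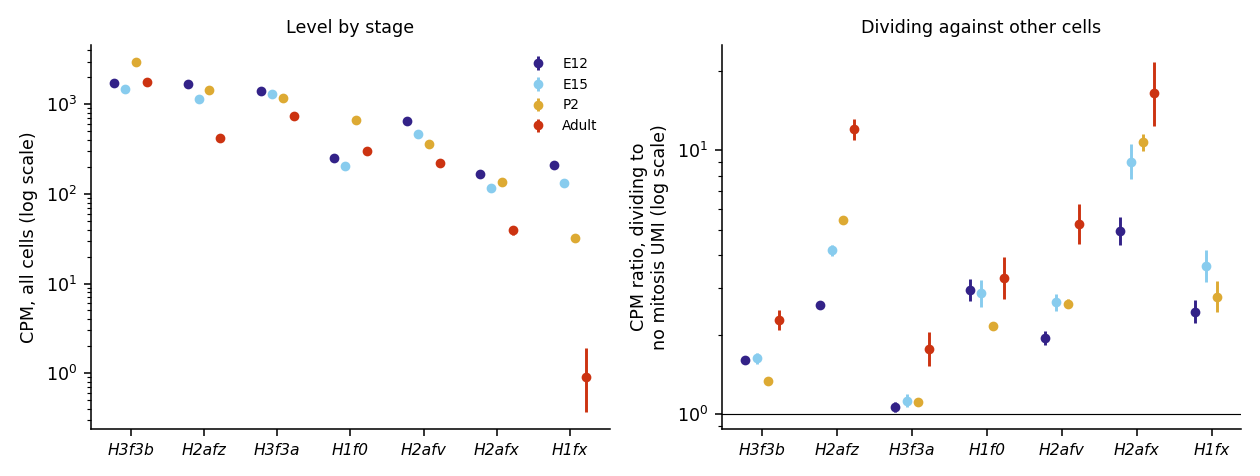
The 7 replacement histone genes: on the left their CPM over all cells at each stage (log scale), on the right the ratio of their CPM in dividing cells to that in cells with no mitosis UMI (log scale, line at 1), both with exact 95% intervals. The adult ratio of H1fx, which had 7 UMIs, is left out. H2afx has the highest ratio at each stage (4.94 to 16.4) and H3f3a the lowest at the first 3 stages.

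Genes that serve histones were read from lists chosen by function. Of 22 S phase genes, 5, 16 and 22 were higher by 2-fold or more in dividing cells at the first 3 stages, and 21 of 21 compared in adults, where 4.48%, 6.12%, 5.86% and 13.3% of all genes compared were, in stage order. Pcna, the clamp of DNA polymerase, had ratios of 1.44, 2.30, 4.21 and 4.90, Dut, which keeps uracil out of DNA, 1.63, 2.75, 4.19 and 7.56, and Tipin, of the replication fork, 1.74, 2.33, 3.25 and 3.87.

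Of 15 genes for the processing of histone mRNA, 14 could be compared at each stage, and 0, 0, 3 and 4 of them were higher, with the same shares of all genes beside them. Slbp, whose protein binds the stem-loop, was at 120, 107, 205.5 and 123.1 CPM with ratios of 1.28, 1.70, 3.26 and 4.16. Snrpb and Snrpd3, core proteins of small nuclear RNPs, had ratios of 1.29, 1.29, 1.55 and 1.69 and of 1.15, 1.46, 1.35 and 1.82. Of 20 histone chaperone genes, 3, 7 and 10 were higher before adulthood and 9 of 19 compared in adults, against 4.48%, 6.12%, 5.86% and 13.3% of all genes. Npm1 went from 1347 to 1005, 651 and 306 CPM over the stages. Nap1l1, which carries H2A and H2B, had ratios of 1.21, 1.82, 2.53 and 3.14, and Atrx, which helps to place H3.3, 0.882, 1.04, 1.01 and 0.894.

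The 3 histone variants outside the set with most UMIs were followed as well. Cenpa, the H3 form of centromeres, was higher in dividing cells by 5.27, 10.0, 24.5 and 38.8-fold. H2afj had ratios of 1.08, 1.32, 0.948 and 1.81 and H2afy, for macroH2A, of 1.31, 1.58, 1.62 and 1.86.

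Hist1h1c and Hist3h2ba were higher in cells with many UMIs of Hist1h2bc. At P2, 138 cells held 5 or more Hist1h2bc UMIs and 4514 held none, a split chosen after the data were seen. Hist1h1c stood at 391 CPM in the former and 35.1 in the latter, 11.2-fold (9.78 to 12.7) higher, Hist3h2ba 4.38-fold and Hist3h2a 2.38-fold higher. The 64 others were 1.50-fold higher, while Hist1h2ap had a ratio of 0.136 (0.0441 to 0.319) and the S phase list of 0.374. For Hist2h2be, the remaining polyadenylated member, the ratio was 1.36 (0.363 to 3.64). Without the P2 barcode named above, Hist1h1c was 10.8-fold (9.45 to 12.3) higher and the 64 others 1.21-fold (1.03 to 1.43). The endothelial markers had a ratio of 1.00 (0.973 to 1.03), and median depths were 5410 and 4388.5 UMIs.

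In adults, 45 such cells against 2672 gave Hist1h1c a ratio of 5.53 (4.30 to 7.05), Hist3h2ba 8.97 (4.10 to 18.1), Hist1h4h 5.63 (2.92 to 10.1) and Hist3h2a 1.60 (1.01 to 2.41). The 64 others had a ratio of 2.45 (1.69 to 3.45), and Hist2h2be had 0 UMIs in those 45 cells, which allows a ratio of up to 8.36. One of the 45 was the single dividing barcode, and without it Hist1h1c was at 4.92 (3.75 to 6.36), Hist1h4h at 4.56 (2.17 to 8.67) and the 64 others at 1.76 (1.12 to 2.63). Hist3h2ba then fell to 4.20 (1.28 to 10.8), from 5 UMIs, and the interval of Hist3h2a included 1 (1.31, 0.778 to 2.07). Median depths were 2890 and 1337.5 UMIs. Cells with 1 to 4 Hist1h2bc UMIs had Hist1h1c ratios of 5.27, 3.02, 3.24 and 1.91 in stage order, and in thinned cells these were 3.80, 3.55, 2.90 and 1.80. The counts of both genes come from the same cells, so no p-value is given.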

How the data were processed

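Cells were sorted from mouse hearts and sequenced as 10x Genomics 3′ libraries, and the deposited values are UMI counts per gene and barcode that the authors made with Cell Ranger 2.2 on mm10. At E12, barcodes with at least 0.1 of the UMIs at the 0.99 quantile of the 3000 largest were called cells, the older Cell Ranger rule, which left 88.7% of UMIs in cells; the other matrices were used as deposited, with no doublet caller and no quality limit. UMIs were summed per stage and cell set, and CPM, exact Poisson intervals and exact ratio intervals (95%) were computed with Python 3.11.15, numpy 2.4.6, scipy 1.17.1 and pandas 2.3.3, and plotted with matplotlib 3.10.9. A UMI marks 1 captured 3′ end, so values were not divided by length. A gene was compared where both sets together held 20 UMIs, and a set at 0 entered as 3 UMIs. Named were the 7 replacement histones, the 12 replication members with most UMIs or any among the 5 highest at a stage, and the 3 genes of each list with most UMIs. Scripts were tested on simulated counts. Members and lists were chosen with earlier results of these data known. The alternatives were thinning to 500 UMIs, other limits, cell sets, scalings and thresholds.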

Additional observations from a re-analysis of the deposited data

Results flagged for a closer look

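The ratio of dividing cells to cells with no mitosis UMI lay below 1 at some stages and above 1 at others for 3 quantities, each with an interval that excluded 1. For Hist1h2bc it was 0.529, 0.629, 1.24 and 1.56 from E12 to adult. For Hist3h2a it was 0.667 at E15 and 1.61 in adults. For the 5 polyadenylated members it was 0.720, 0.813, 1.20 and 1.56. The difference between stages was not tested, since each stage has 1 library, and at P2 and in adults these values move with the single barcodes described above.

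The E12 matrix also held 13258 barcodes with 10 to 100 UMIs, below the cells called, with 327990 UMIs in all. Replication histones stood there at 348 CPM (0.587 of the level in cells) and replacement histones at 4003 CPM (0.654). The 5 polyadenylated members were at 192 CPM, a ratio to cells of 1.24 (0.948 to 1.60), and the 64 others at 155 CPM, a ratio of 0.356 (0.264 to 0.469). Hist1h2bc gave 41 UMIs there, 1.61 times (1.15 to 2.22) its level in cells, and Hist1h2ap 3 UMIs, with a ratio of 0.0839 (0.0173 to 0.246).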

How the results depend on the processing

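No paired analysis was possible because each stage has 1 library. Of 1384 values of named genes and sums under an alternative, 941 stayed within their interval and 435 moved. Among all values whose main interval excluded 1, 10 changed side of 1. Changes of side by values whose main interval included 1 were not counted. Thinned to 500 UMIs, the replication sum was 543 CPM at E12, 386 at E15 and 359 at P2, its ratio 2.56 at E12 and, on the other side of 1, 0.676 in adults, that for S phase and mitosis together against neither 3.68, 7.01 and 3.01 at E12, E15 and P2, and that for S phase only 1.63, 2.31, 1.15 (0.812 unthinned) and, in adults, 0.553; shares of cells were 41.7% against 17.6%, 43.3% against 11.6%, 30.1% against 12.7% and 25.0% against 28.1%, and Hist1h1c at E15 had a ratio of 0.767. Within the study's limits on UMIs, genes and mitochondrial share, the ratio was 3.02 at E12 and 4.21 in adults (19 of 33 dividing cells left) and the E15 sum 399.9 CPM. In endothelial marker cells E12 gave 465 CPM and a ratio of 3.33, and with a limit of 1000 UMIs 619 CPM. Without haemoglobin and mitochondrial genes in the total, the sum was 615 at E12, 405.5 at P2 and 761 in adults, and with median-of-ratios scaling 438 at E15 and 374 at P2, with a P2 ratio of 3.398. Without Hist1h2bc the sums were 515, 349, 285 and 378 CPM, so that adults no longer led, and the ratios 3.501, 6.04, 4.05 and 3.22. With dividing cells set at 1 UMI the ratios were 2.59, 3.998, 2.52 and 1.67, and at E15 the polyadenylated ratio was 1.18 and that of Hist1h2bc 1.22; at 3 UMIs they were 3.18 at P2 and 1.70 in adults, where the polyadenylated ratio was 0.7995, that of Hist1h4i 0.802 and that of Hist1h2bc 0.646. With S phase set at 3 UMIs, S phase only against neither gave 1.5 at E12 and 0.717 in adults. Among alternatives chosen after seeing the data, cells with no mitosis UMI gave 370, 245 and 262 CPM from E12 to P2, the endothelial ones among them 282, 232 and 262, and leaving out the single barcode gave an adult ratio of 1.72, with 0.845 for the polyadenylated members and 0.731 for Hist1h2bc. The causes of these shifts were not tested. Adult ratios rest on 33 dividing cells.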
